A study of Homo sapiens with 4 samples.

Results

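The COMMD genes encode a family of small endosomal sorting proteins, COMMD1 to COMMD10. They were taken from a gene expression table of NUGC3, a human gastric cancer cell line, as the rows with an Ensembl gene identifier whose gene symbol is that of a family member. That gave 10 genes of 53777 named genes, and all 10 averaged 1 FPKM or more and so entered the test across genes. FPKM is the authors' unit of expression, fragments scaled to the length of the transcript and to the size of the library, so levels of different genes can be set side by side. The family was selected on results of these same libraries, among them the FPKM difference between knockdown and scramble libraries, so the values of its members are given as a description, with no p for any single member.

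RNA sequencing was done on 2 NUGC3 libraries labelled as NIPBL knockdown and 2 labelled scramble. The knockdown libraries came from cells given short hairpins against NIPBL, hairpin 1 in knockdown library 1 and hairpin 7 in knockdown library 2, and the scramble libraries from cells transfected with a scramble control. All 4 labels also hold the letters DOX, which they do not explain, and the sources used here give no time after transfection. The labels do not state separate cultures for the libraries of a group, so the spread between them may be technical, and scramble 2 carries the label of scramble 1 with a suffix. The series concerns MYC, thymidylate synthase and antifolate drugs, and these libraries ask what differs when NIPBL is lowered.

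COMMD proteins share a C-terminal COMM domain, through which they pair with each other and build a ring that holds each member. The ring joins CCDC22 and CCDC93, and together with the retriever proteins VPS35L, VPS26C and VPS29 and with DENND10 it forms the Commander assembly on endosomes. Commander sends membrane proteins such as integrins and the low-density lipoprotein receptor back to the cell surface, alongside the WASH complex, which builds actin on the endosome, and the sorting nexin SNX17. The family is also known for copper balance and for restraint of NF-kB, both first tied to COMMD1. NIPBL, the gene lowered here, loads the cohesin ring onto chromosomes.

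NIPBL was at 7.27 FPKM with hairpin 1 and 9.17 FPKM with hairpin 7, against 23.92 and 23.11 FPKM in the scramble libraries (log2 difference -1.42 ± 0.14, SE, limma, adjusted p = 0.0218). Without either scramble library that call was lost (limma, adjusted p = 0.257 and 0.261), with the difference at -1.39 and -1.44. The FPKM of named genes summed to 685330 and 618833 in the knockdown libraries and to 676445 and 668847 in the scramble libraries, and the read depth is unknown. The 5 epithelial markers EPCAM, KRT8, KRT18, KRT19 and CDH1 summed to between 4077 and 5041 FPKM in knockdown libraries and between 5045 and 5101 FPKM in scramble libraries. That sum was mostly KRT8 and KRT18, while KRT19 was higher in knockdown libraries (982.21 and 1061.62 FPKM) than in scramble libraries (655.38 and 661.43 FPKM), as was CDH1 (71.29 and 65.42 FPKM in knockdown, 55.96 and 54.25 FPKM in scramble). Of 4 leukocyte markers and 2 endothelial markers with a row, 0 reached 1 FPKM in any library, PTPRC was listed at 0 in all 4, and the endothelial sum was 0.38 to 0.96 FPKM in knockdown and 0.14 to 0.20 FPKM in scramble libraries. Of 5 fibroblast markers only COL1A1 reached 1 FPKM, with a sum of 7.34 to 9.59 FPKM in knockdown and 5.76 to 6.57 FPKM in scramble libraries, and of 3 neuronal markers RBFOX3 and SYT1 did, with sums of 5.58 to 6.36 FPKM in knockdown and 4.48 to 5.58 FPKM in scramble libraries. Those markers differed in direction, RBFOX3 at 1.57 and 0.93 FPKM in knockdown and 3.88 and 2.94 FPKM in scramble libraries, and SYT1 at 4.79 and 4.65 FPKM in knockdown and 1.70 and 1.47 FPKM in scramble libraries. The part of these markers in the values below was not tested. Fewer cells of a kind and less RNA per cell cannot be told apart in such bulk samples.

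All 10 COMMD genes were expressed in every library, and their summed level was higher in the knockdown libraries. The sum was 268.33 FPKM with hairpin 1 and 271.42 FPKM with hairpin 7, against 211.72 and 211.71 FPKM in the scramble libraries, a ratio of means of 1.27 (269.9 ± 2.19 FPKM in knockdown and 211.7 ± 0.00707 FPKM in scramble, SD, n = 2 each). The groups did not overlap. Of the difference of 58.2 FPKM, 83.7% came from COMMD3, COMMD4, COMMD6 and COMMD7, a set picked after its values were seen. These genes made up 63.5% and 61.8% of the family's FPKM in the knockdown libraries and 56.5% and 57.2% in the scramble libraries.

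**Figure D1:**
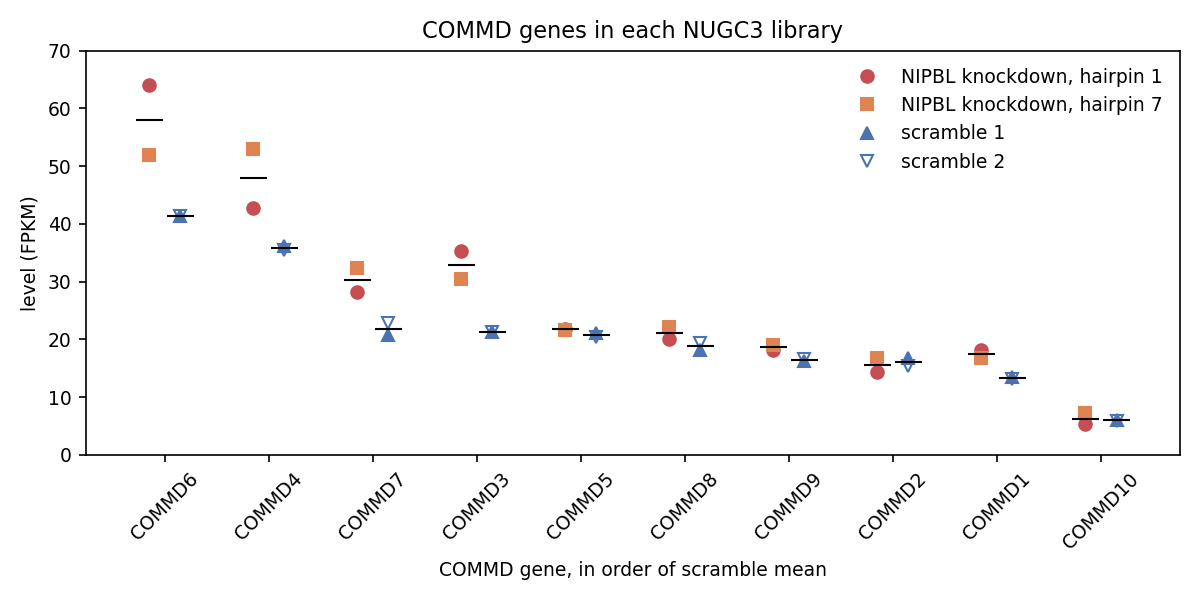
Level of each COMMD gene in FPKM (vertical axis) in the NIPBL knockdown libraries (left of each pair, circles for hairpin 1 and squares for hairpin 7) and the scramble libraries (right, triangles), with black bars at the group means. COMMD6, COMMD4, COMMD7, COMMD3 and COMMD1 stand clear of their scramble values, while COMMD2 and COMMD10 overlap them.

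Over the members, 9 of 10 had a log2 difference above 0, against 48.3% of the 12834 genes tested, and the median was 0.27, against -0.01 over all genes tested. Both hairpin values lay above both scramble values in 8 members, below in 0, and overlapped them in 2, where 29.5% of all genes tested lay above and 30.8% below. In limma with Benjamini-Hochberg adjustment 0 of 10 members passed an adjusted p of 0.05, where 2.56% of all genes tested passed (1.45% higher and 1.11% lower), and 5 had an unadjusted p under 0.05, where 26.4% of all genes did. Nothing is read from these counts, since this contrast was in view when the family was chosen. With knockdown library 1 left out 5 members passed, where 35.3% of all genes tested did, and with knockdown library 2 left out 4 passed, where 22.7% did. In these fits the remaining knockdown library takes its spread from the scramble libraries, and nothing is read from these counts either.

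The order of levels was broad and only partly stable. In the scramble libraries the means ran, from high to low, COMMD6, COMMD4, COMMD7, COMMD3, COMMD5, COMMD8, COMMD9, COMMD2, COMMD1 and COMMD10. The scramble values of COMMD7 and COMMD3, and of COMMD9 and COMMD2, overlapped, so their order is not set. In the knockdown libraries COMMD6 and COMMD4, COMMD3 and COMMD7, and COMMD5 and COMMD8 overlapped, and COMMD1 stood above COMMD2. The highest member exceeded the lowest 12.2-fold with hairpin 1 and 7.24-fold with hairpin 7, against 6.81-fold and 7.02-fold in the scramble libraries. COMMD10 was the lowest in all 4 libraries and was the 1 member with the same rank in each. By its scramble mean COMMD6 lay at percentile 80.7 of the genes tested and COMMD10 at percentile 30.0.

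**Figure D2:**
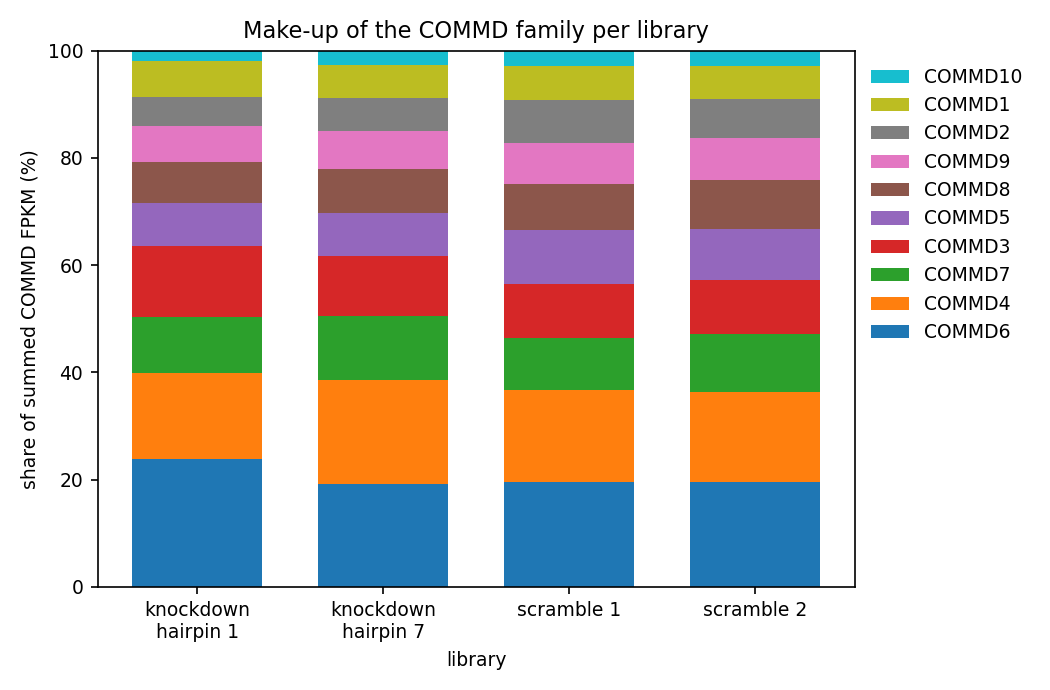
Share of the summed COMMD FPKM taken by each gene, in percent (vertical axis), in the NIPBL knockdown libraries (left) and scramble libraries (right), stacked from the gene with the highest scramble mean at the bottom. COMMD3 took 12.2% on average in knockdown and 10.1% in scramble libraries, and COMMD2 took 5.74% in knockdown and 7.60% in scramble libraries.

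COMMD3 and COMMD8 are the pair known to act together on chemokine and adrenergic receptors, and they differed in size of change. COMMD3 (ENSG00000148444, chromosome 10) had the highest log2 difference of the family. It was at 35.23 FPKM with hairpin 1 and 30.45 FPKM with hairpin 7, against 21.30 and 21.32 FPKM in the scramble libraries, 1.54-fold by the means (log2 difference 0.60 ± 0.11, SE, n = 2 each). Both knockdown libraries were high by at least 9.13 FPKM and the scramble libraries were almost equal. COMMD8 (ENSG00000169019, chromosome 4) was at 20.12 and 22.18 FPKM in the knockdown libraries, against 18.23 and 19.35 FPKM in the scramble libraries (log2 difference 0.16 ± 0.11, SE). Its groups were separate by 0.77 FPKM, less than the gap between the scramble libraries.

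COMMD6 (ENSG00000188243, chromosome 13) encodes the shortest protein of the family, little more than the COMM domain itself. It was at 64.12 FPKM with hairpin 1 and 51.90 FPKM with hairpin 7, against 41.34 and 41.33 FPKM in the scramble libraries, 1.40-fold by the means (log2 difference 0.47 ± 0.13, SE, n = 2 each). Both hairpins were high, hairpin 1 more so. COMMD1 (ENSG00000173163, chromosome 2), the copper and NF-kB regulator whose loss causes copper toxicosis in Bedlington terriers, was at 18.13 and 16.79 FPKM in the knockdown libraries, against 13.53 and 13.07 FPKM in the scramble libraries, 1.31-fold by the means (log2 difference 0.37 ± 0.10, SE, n = 2 each). The groups stood 3.26 FPKM apart, with both knockdown libraries high.

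COMMD4 (ENSG00000140365, chromosome 15), a ring subunit, was at 42.83 FPKM with hairpin 1 and 52.97 FPKM with hairpin 7, against 36.26 and 35.51 FPKM in the scramble libraries, 1.34-fold by the means (log2 difference 0.40 ± 0.13, SE, n = 2 each). COMMD7 (ENSG00000149600, chromosome 20), another subunit and a reported NF-kB regulator, was at 28.26 FPKM with hairpin 1 and 32.41 FPKM with hairpin 7, against 20.81 and 22.91 FPKM in the scramble libraries, 1.39-fold by the means (log2 difference 0.45 ± 0.12, SE, n = 2 each). In both genes the groups were separate and hairpin 7 was the higher of the hairpins, the reverse of COMMD3, COMMD6 and COMMD1 in FPKM. In COMMD1 the gap was small (log2 difference -0.10, hairpin 7 minus hairpin 1), and its order may depend on scaling.

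The other members differed little. COMMD5 (ENSG00000170619, chromosome 8), first described in rats as a hypertension-related gene regulated by calcium, was at 21.86 and 21.64 FPKM in the knockdown libraries, against 21.12 and 20.38 FPKM in the scramble libraries (log2 difference 0.06 ± 0.09, SE). COMMD9 (ENSG00000110442, chromosome 11), which takes part in the endosomal sorting of Notch receptors, was at 18.22 and 19.05 FPKM in the knockdown libraries, against 16.30 and 16.55 FPKM in the scramble libraries (log2 difference 0.17 ± 0.10, SE). Both genes had separate groups, by 0.52 FPKM in COMMD5 and 1.67 FPKM in COMMD9. In COMMD5 this was less than the gap between the scramble libraries.

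The groups overlapped in COMMD2 and COMMD10, both ring subunits. COMMD2 (ENSG00000114744, chromosome 3) was at 14.30 and 16.71 FPKM in the knockdown libraries, against 16.76 and 15.40 FPKM in the scramble libraries, and had the lowest log2 difference of the family (-0.05 ± 0.12, SE). COMMD10 (ENSG00000145781, chromosome 5) was at 5.26 FPKM with hairpin 1 and 7.32 FPKM with hairpin 7, against 6.07 and 5.89 FPKM in the scramble libraries (log2 difference 0.05 ± 0.18, SE). In COMMD10 hairpin 1 lay below both scramble libraries and hairpin 7 above both, and the sign of either gene's mean difference turned when 1 of the knockdown libraries was left out. It also turned in COMMD2 without scramble library 1 (0.0054) and in COMMD10 with quantile normalization (-0.0014).

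**Figure D3:**
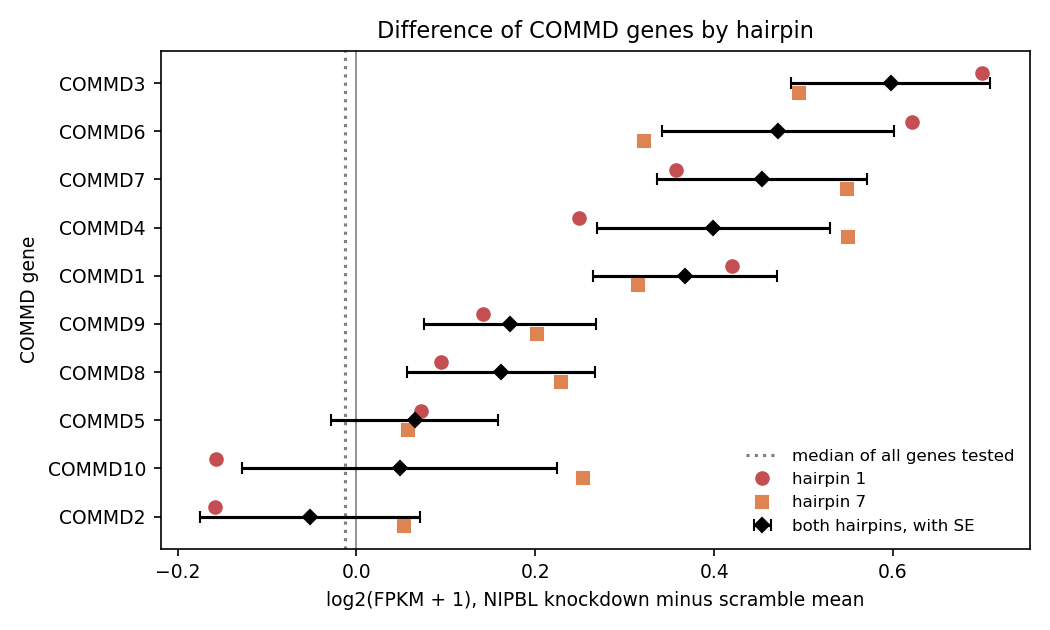
Difference of log2(FPKM + 1) from the scramble mean (horizontal axis) for each COMMD gene, for hairpin 1 (circles), hairpin 7 (squares) and both together (diamonds, bars are the limma SE); the dotted line is the median of all genes tested. COMMD3 is at the top with 0.60 and COMMD2 at the bottom with -0.05.

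The hairpins also differed within the family. The median log2 difference of the members was 0.20 with hairpin 1 and 0.28 with hairpin 7, against 0.01 and -0.03 over all genes tested. Hairpin 7 gave the higher level in 6 members and hairpin 1 in 4. The FPKM of named genes summed to 685330 with hairpin 1 and 618833 with hairpin 7, so this split may depend on scaling. In COMMD5 and COMMD1 the gap was small (-0.01 and -0.10, hairpin 7 minus hairpin 1). The widest gap between hairpins was 0.41 on the log2 scale, in COMMD10, while the widest between the scramble libraries was 0.13, in COMMD7. Each hairpin is 1 library, so the difference between hairpins was not tested.

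Promoter sequences are shown for the 4 members with the highest log2 differences and for COMMD2, which had the lowest, so that the start regions of genes that stood apart can be read beside that of one that did not. They are RefSeq windows on GRCh38.p14 from 250 bases before to 50 bases after an annotated start site, on the strand of the gene, and capitals mark the motifs searched. The windows lie at chr10:22316138-22316437 (plus strand) for COMMD3, chr13:75549390-75549689 (minus strand) for COMMD6, chr20:32743418-32743717 (minus strand) for COMMD7, chr15:75335813-75336112 (plus strand) for COMMD4 and chr3:149752440-149752739 (minus strand) for COMMD2. For COMMD6 the window of the farther upstream of its annotated starts is given.
COMMD3: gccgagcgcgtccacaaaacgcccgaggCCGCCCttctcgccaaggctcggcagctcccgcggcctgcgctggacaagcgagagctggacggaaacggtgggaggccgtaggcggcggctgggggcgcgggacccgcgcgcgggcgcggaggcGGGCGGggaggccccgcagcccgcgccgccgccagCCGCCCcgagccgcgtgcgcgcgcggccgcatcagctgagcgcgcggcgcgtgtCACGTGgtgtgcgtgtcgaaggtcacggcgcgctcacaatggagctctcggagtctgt
COMMD6: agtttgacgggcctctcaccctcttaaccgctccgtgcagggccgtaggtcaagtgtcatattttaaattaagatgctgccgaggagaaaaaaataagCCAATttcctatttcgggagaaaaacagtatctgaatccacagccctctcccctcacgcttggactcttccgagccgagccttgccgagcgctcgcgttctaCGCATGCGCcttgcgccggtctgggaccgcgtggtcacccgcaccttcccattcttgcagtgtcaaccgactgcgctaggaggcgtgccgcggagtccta
COMMD7: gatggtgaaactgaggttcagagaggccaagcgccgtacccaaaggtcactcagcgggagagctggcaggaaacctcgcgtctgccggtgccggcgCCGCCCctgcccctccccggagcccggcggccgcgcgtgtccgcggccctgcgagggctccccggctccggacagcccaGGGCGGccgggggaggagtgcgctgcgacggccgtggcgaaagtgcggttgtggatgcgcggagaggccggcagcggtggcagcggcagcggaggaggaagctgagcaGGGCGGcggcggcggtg
COMMD4: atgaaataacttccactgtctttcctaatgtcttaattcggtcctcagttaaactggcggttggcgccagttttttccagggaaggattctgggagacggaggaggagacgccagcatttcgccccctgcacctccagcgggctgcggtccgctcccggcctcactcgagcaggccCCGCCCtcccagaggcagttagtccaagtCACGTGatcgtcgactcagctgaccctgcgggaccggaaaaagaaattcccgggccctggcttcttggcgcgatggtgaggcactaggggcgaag
COMMD2: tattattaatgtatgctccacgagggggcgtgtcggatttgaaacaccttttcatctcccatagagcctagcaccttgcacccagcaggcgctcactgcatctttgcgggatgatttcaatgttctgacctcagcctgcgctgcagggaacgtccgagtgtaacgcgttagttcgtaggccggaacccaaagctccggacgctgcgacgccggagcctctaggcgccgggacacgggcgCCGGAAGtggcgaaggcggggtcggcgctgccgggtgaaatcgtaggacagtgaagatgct

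The motifs searched, on both strands, were the E-box CACGTG, the GC box GGGCGG, the CCAAT box CCAAT, the TATA box TATAAA, the ETS core CCGGAAG, the NRF1 core GCGCATGCG and the YY1 core AAGATGG, none of which overlapped another in the windows printed. The table gave 14 windows for 9 members, and COMMD5 was not searched. The E-box, the site of MYC and of related factors, was in 5 of 14 windows (35.7%), 1 each of COMMD3, COMMD4, COMMD8, COMMD9 and COMMD10, where 7.26% of all 35116 windows of that length held it. It lay 8 bases before the start in COMMD3 and 45 bases before it in COMMD4. The windows of COMMD1, COMMD2, COMMD6 and COMMD7 held no E-box. Whether a motif goes with a difference in level was not tested.

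The GC box was in 7 of the members' 14 windows, against 45% of all windows, and the CCAAT box in 21.4% against 34.6%. The NRF1 core was in 1 window, the upstream COMMD6 window printed above, against 1.92% of all windows. The ETS core was in 14.3% of the members' windows, of COMMD2 and COMMD10, against 10.3% of all, the TATA box in 7.1% against 11.5% and the YY1 core in 21.4%, of COMMD9 and COMMD10, against 5.84%. Some windows of COMMD10 overlap and hold the same match. The members' windows had a median GC content of 60.3%, with a range of 49.0% to 77.0%, against a median of 58.7% over all windows.

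The value of COMMD3 has to be read with its locus. COMMD3-BMI1 is a readthrough transcript that runs from the start of COMMD3 into BMI1, which encodes a Polycomb protein, and in RefSeq it has the same start window as COMMD3, printed above. In GENCODE 29 on GRCh38, COMMD3 spans chr10:22315974-22320308, and 904 of its 3317 exonic bases (27.3%) are shared with the readthrough gene, which has no exonic base outside COMMD3 and BMI1. COMMD3-BMI1 was at 21.29 FPKM with hairpin 1 and 15.52 FPKM with hairpin 7, against 6.07 and 8.71 FPKM in the scramble libraries, 2.49-fold by the means (log2 difference 1.21 ± 0.23, SE, n = 2 each, limma, adjusted p = 0.067). BMI1 was at 31.67 and 32.04 FPKM in the knockdown libraries, against 22.08 and 24.45 FPKM in the scramble libraries (log2 difference 0.44 ± 0.10, SE, limma, adjusted p = 0.0888). All 3 rows were higher in both knockdown libraries, and neither COMMD3-BMI1 nor BMI1 passed the test.

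COMMD3 and COMMD3-BMI1 together were at 56.52 and 45.97 FPKM in the knockdown libraries and at 27.37 and 30.03 FPKM in the scramble libraries, a ratio of means of 1.79. The readthrough row took 37.7% and 33.8% of that sum in the knockdown libraries and 22.2% and 29% in the scramble libraries. How reads of the shared bases were divided between the rows was not tested.

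**Figure D4:**
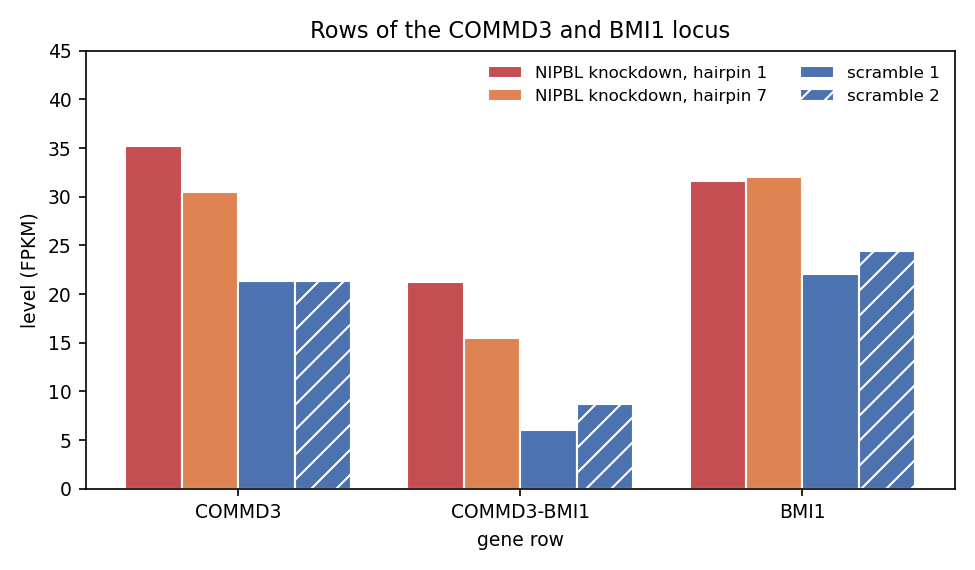
Level in FPKM (vertical axis, from 0) of the rows COMMD3, COMMD3-BMI1 and BMI1 in each library, with the NIPBL knockdown libraries to the left of the scramble libraries. All 3 rows are higher in both knockdown libraries, and COMMD3-BMI1 by the most, 2.49-fold.

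Other members also share exonic bases with another gene, and the strand setting is not given in the sources used here, so reads from opposite strands cannot be told apart. COMMD1 shares 81 exonic bases (3.4%) with the chaperonin gene CCT4 on the opposite strand, which was at 340.21 and 274.22 FPKM in the knockdown libraries and at 427.15 and 420.82 FPKM in the scramble libraries. It also holds the pseudogene RPSAP26 on the same strand, 741 shared bases (31% of the exonic bases of COMMD1), which was at 0.51 and 0.53 FPKM in the knockdown libraries and listed at 0 in the scramble libraries, and shares 251 bases (10.5%) with the antisense gene AC018462.1, listed at 0 in all 4. COMMD5 shares 389 exonic bases (13.3%) with the opposite-strand gene ZNF7, at 17.00 and 14.11 FPKM in the knockdown libraries and 19.66 and 21.95 FPKM in the scramble libraries. CCT4 and ZNF7 were lower in the knockdown libraries, where COMMD1 and COMMD5 were higher. COMMD7 shares 702 exonic bases (27.2%) with FO393400.1 on the same strand, which is not analysed here, and COMMD10 shares 103 (4.2%) with the antisense gene AC034236.2, at 0.59 and 0.24 FPKM in the knockdown libraries and 0.19 and 0.24 FPKM in the scramble libraries. COMMD4, COMMD5 and COMMD6 have pseudogenes in RefSeq, so their values are uncertain as far as reads could be split with those copies.

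The members lie on 10 different chromosomes, so their neighbourhoods are separate. Of the 20 nearest protein-coding neighbours in RefSeq, 1 on each side of each member, 11 were expressed enough to be tested. Of these, 3 had a log2 difference above 0, where 48.3% of all genes tested did, and 8 below. In limma 0 passed an adjusted p of 0.05, where 2.56% of all genes tested did. The neighbours had the sign of the member next to them in 4 of 11. Nothing is read from these counts. UCHL3, whose gene begins 63 bases from COMMD6, was at 79.71 and 75.04 FPKM in the knockdown libraries and 78.01 and 82.86 FPKM in the scramble libraries. COMMD6 was thus higher in both knockdown libraries beside a neighbour whose groups overlapped, while COMMD3 and its neighbour BMI1 were both higher.

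Genes for the other Commander proteins lay on both sides of 0. VPS26C, a retriever subunit, was at 24.94 and 26.38 FPKM in the knockdown libraries, against 19.34 and 21.84 FPKM in the scramble libraries (log2 difference 0.31 ± 0.11, SE, limma, adjusted p = 0.167). DENND10 was at 24.70 and 22.13 FPKM in the knockdown libraries, against 31.10 and 28.15 FPKM in the scramble libraries (log2 difference -0.33 ± 0.11, SE, limma, adjusted p = 0.160). VPS26C was the higher and DENND10 the lower in both knockdown libraries, and neither passed.

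CCDC22, a scaffold of the ring, was at 13.42 and 13.99 FPKM in the knockdown libraries, against 12.16 and 12.69 FPKM in the scramble libraries. The groups of the scaffold CCDC93 (22.57 and 19.53 FPKM in knockdown, 17.84 and 20.67 FPKM in scramble) and of VPS29, which retriever shares with retromer (86.65 and 76.25 FPKM in knockdown, 92.09 and 81.80 FPKM in scramble), overlapped. The row of VPS35L, which encodes the core of retriever, held only 0.45 and 0.09 FPKM in the knockdown libraries and 0.28 and 0.32 FPKM in the scramble libraries and was too low to be tested. The annotation behind the table is not given in the sources used here, so this row may not hold all reads of the gene. Of the 5 partners tested 0 passed, and their log2 differences ran from -0.33 to 0.31 with a median of 0.12.

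Over the lists of genes associated with the family, 0 of 56 tested genes passed (limma, adjusted p), where 2.56% of all genes did. At an unadjusted p under 0.05 there were 14 (25%), 9 higher and 5 lower, near the 26.4% over all genes tested (13.6% higher and 12.8% lower). These shares, and the 48.3% of all genes tested with a log2 difference above 0, stand beside the counts of each list below. In 33 of 56 (58.9%) the groups did not overlap, where 60.3% of all genes did not. Counts from fits with a knockdown library left out are not read, since the remaining knockdown library takes its spread from the scramble libraries.

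Of the 6 WASH complex genes 5 had a log2 difference above 0, where 48.3% of all genes tested did, with a median of 0.39. In limma 0 passed, and 1 was higher at an unadjusted p under 0.05, where 13.6% of all genes tested were. WASHC3 was at 25.52 FPKM with hairpin 1 and 33.55 FPKM with hairpin 7, against 21.36 and 19.90 FPKM in the scramble libraries (log2 difference 0.49 ± 0.16, SE, limma, adjusted p = 0.144). WASHC4 was at 18.31 and 24.56 FPKM in the knockdown libraries, against 16.01 and 15.58 FPKM in the scramble libraries (log2 difference 0.40 ± 0.16, SE, limma, adjusted p = 0.198). Hairpin 7 gave the higher level in both. Without knockdown library 1 the log2 difference was 0.68 for WASHC3 and 0.61 for WASHC4. Without knockdown library 2 it was 0.29 and 0.20, in that order, each from 1 knockdown library. WASHC1, WASHC2A and WASHC2C have near-identical copies, so their values, and the count and median over the 6 genes, are uncertain. The row used for WASHC1, the gene with a log2 difference below 0, is labelled a pseudogene.

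VPS26A, a subunit of retromer, the sorting complex related to retriever, was at 40.12 FPKM with hairpin 1 and 60.61 FPKM with hairpin 7, against 36.05 and 37.98 FPKM in the scramble libraries (log2 difference 0.41 ± 0.21, SE, limma, adjusted p = 0.283). VPS35, the core of retromer, was at 54.14 FPKM with hairpin 1 and 28.37 FPKM with hairpin 7, against 53.18 and 47.06 FPKM in the scramble libraries (log2 difference -0.34 ± 0.31, SE, limma, adjusted p = 0.516). Of the 3 retromer genes 0 passed, also at an unadjusted p under 0.05. Both values rest on hairpin 7. Without knockdown library 1 VPS26A had a log2 difference of 0.70 and VPS35 of -0.80. Without knockdown library 2 both stood at 0.11, with the sign of VPS35 turned. Each of these fits holds 1 knockdown library, so no p is given.

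Of 8 sorting nexin genes tested, 4 had a log2 difference above 0 and 4 below (median 0.02), and 0 passed (2 higher and 1 lower at an unadjusted p under 0.05, limma). SNX5, which carries cargo with its partners SNX1 and SNX2, was at 128.83 and 116.12 FPKM in the knockdown libraries, against 183.13 and 188.31 FPKM in the scramble libraries (log2 difference -0.60 ± 0.10, SE, limma, adjusted p = 0.0573). SNX3, which serves retromer, was at 140.74 and 162.00 FPKM in the knockdown libraries, against 115.36 and 114.21 FPKM in the scramble libraries (log2 difference 0.39 ± 0.11, SE, limma, adjusted p = 0.114). Both had separate groups in opposite directions. With knockdown library 1 left out the log2 difference was -0.67 for SNX5 and 0.49 for SNX3. With knockdown library 2 left out it was -0.52 and 0.29, in that order. Each of these fits holds 1 knockdown library, so no p is given.

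Among 10 genes of membrane proteins that take this route, 8 had a log2 difference above 0 (median 0.27), where 48.3% of all genes tested did. In limma 0 passed. At an unadjusted p under 0.05, 4 were higher and 1 lower, where 13.6% and 12.8% of all genes tested were. Nothing is read from these counts. LRP1, a lipoprotein receptor, was at 3.82 and 4.45 FPKM in the knockdown libraries, against 1.55 and 1.44 FPKM in the scramble libraries (log2 difference 1.04 ± 0.16, SE, limma, adjusted p = 0.0531). ITGA5, the fibronectin receptor subunit, was at 11.27 and 19.58 FPKM in the knockdown libraries, against 4.73 and 3.96 FPKM in the scramble libraries, 3.55-fold by the means (log2 difference 1.58 ± 0.27, SE, limma, adjusted p = 0.0602). Both genes were high in both knockdown libraries. LRP1 passed in the fit without a mean trend (limma, adjusted p = 0.0414). Without knockdown library 1 the log2 difference was 1.13 for LRP1 and 1.95 for ITGA5. Without knockdown library 2 it was 0.95 and 1.20, in that order. Each of these fits holds 1 knockdown library, so no p is given.

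Of 6 copper handling genes 0 passed (0 higher and 1 lower at an unadjusted p under 0.05, limma), with a median log2 difference of 0.02. COX17, a copper chaperone of mitochondria, was at 50.03 and 45.82 FPKM in the knockdown libraries, against 61.39 and 56.26 FPKM in the scramble libraries (log2 difference -0.29, limma, adjusted p = 0.167). SLC31A2 had a log2 difference of 0.26 with overlapping groups (adjusted p = 0.411). The log2 difference of COX17 was -0.35 without knockdown library 1 and -0.23 without knockdown library 2, each from 1 knockdown library.

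Of 5 NF-kB subunit genes 0 passed (1 higher at an unadjusted p under 0.05, limma), with a median of 0.03. REL was at 11.27 and 11.87 FPKM in the knockdown libraries, against 9.29 and 9.37 FPKM in the scramble libraries (adjusted p = 0.178), and RELB had a log2 difference of 0.15 (adjusted p = 0.369). Of 13 genes for cullin ligases and the proteins COMMD1 meets there, 0 passed (0 higher and 1 lower at an unadjusted p under 0.05, limma), with a median of -0.11. HIF1A, the hypoxia factor, was at 153.38 and 152.77 FPKM in the knockdown libraries, against 215.18 and 213.44 FPKM in the scramble libraries (log2 difference -0.48 ± 0.09, SE, limma, adjusted p = 0.0664). CUL7 had a log2 difference of 0.24 (adjusted p = 0.229). The log2 difference of HIF1A was -0.49 without knockdown library 1 and -0.48 without knockdown library 2, each from 1 knockdown library.

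**Figure D5:**
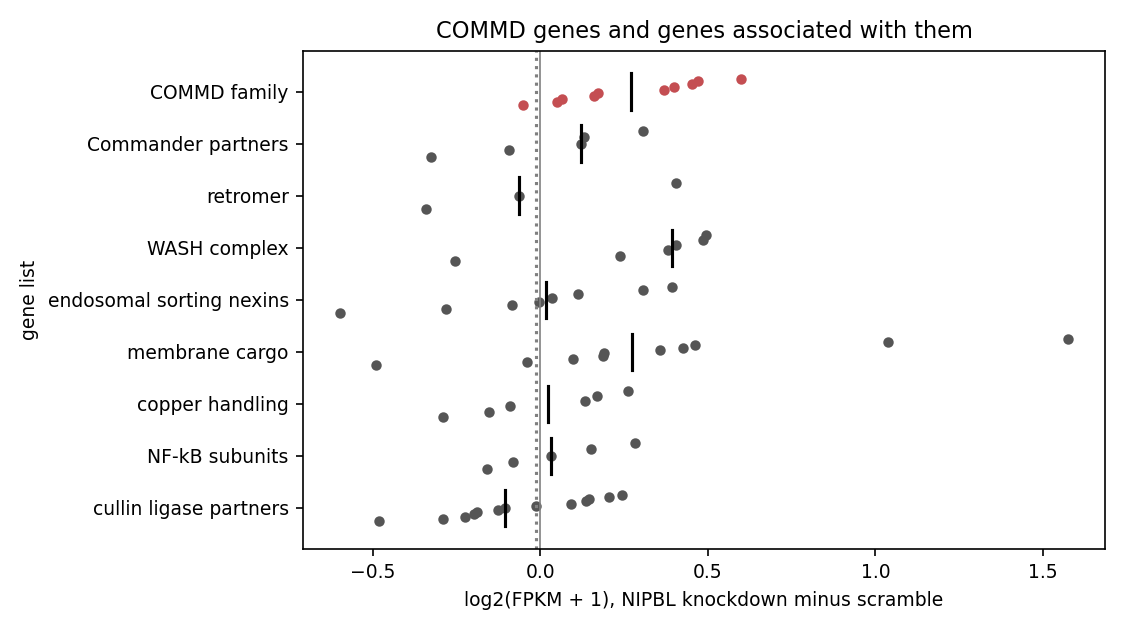
Difference of log2(FPKM + 1), NIPBL knockdown minus scramble (horizontal axis), for each tested gene of the COMMD family (top, red) and of the associated lists (grey); each point is 1 gene, black bars are medians and the dotted line is the median of all genes tested. The COMMD median is 0.27, that of WASH complex genes 0.39 and that of cullin ligase partners -0.11.

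The protein-coding genes most like COMMD3 in profile over the 4 libraries, by the root mean square difference of centred log2(FPKM + 1), were HIST1H2BL (0.02), SLC41A2 (0.02) and TCP11L2 (0.02). HIST1H2BL was near the filter, at 1.99 and 1.63 FPKM in the knockdown libraries and 0.81 and 0.8 FPKM in the scramble libraries. The added 1 FPKM understates the change of such a low gene. The genes most like COMMD2 were MTCH2 (0.008), JADE3 (0.01) and BLOC1S3 (0.01). Such likeness rests on 4 libraries only, and 37 of 11513 genes lay within 0.05 of COMMD3 and 189 within 0.05 of COMMD2.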

How the data were processed

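The deposited table holds FPKM per gene with 2 decimals, made by the authors. The submitters' processing notes name STAR and RSEM and no version. The build, annotation, filters and strand setting are not given in the sources used. Of 344810 rows, the 53777 with an Ensembl identifier were used; the others held 8.47% to 9.27% of a library's FPKM. Libraries were grouped by genotype label. The log2(FPKM + 1) values of the 12834 genes averaging 1 FPKM or more entered limma 3.58.1 (R 4.3.3, eBayes with a mean trend), with Benjamini-Hochberg adjustment over all of them and a two-sided threshold of 0.05. Log2 differences are knockdown minus scramble and understate the change of low genes. Replicate numbers pair nothing. The fit was also run on simulated data with independent libraries and the same spread in both groups. That run does not speak to unequal spread or to libraries that may be technical repeats. List genes were matched by Ensembl identifier; PECAM1 was not analysed here. Members and lists were chosen with earlier results of these data known. Named were all members, NIPBL, all Commander partners, in each other list the genes past the threshold or else the 2 with the smallest p, the 3 genes most like the extreme members, and neighbours past the threshold; COMMD3-BMI1, BMI1, CCT4, ZNF7 and UCHL3 were added after values were seen. Alternatives were the pseudocount, filter, scaling, variance model, averaged scramble libraries and left-out libraries. FPKM gives no depth, so no counting intervals are given.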

Additional observations from a re-analysis of the deposited data

Results flagged for a closer look

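In 6 genes with results given in the report, 1 hairpin library lay above both scramble libraries and the other below both. Each hairpin is 1 library, so the difference was not tested. COMMD10 was at 5.26 FPKM with hairpin 1 and 7.32 FPKM with hairpin 7, against 6.07 and 5.89 FPKM in the scramble libraries. VPS35 was at 54.14 FPKM with hairpin 1 and 28.37 FPKM with hairpin 7, against 53.18 and 47.06 FPKM in the scramble libraries. VPS35L was at 0.45 FPKM with hairpin 1 and 0.09 FPKM with hairpin 7, against 0.28 and 0.32 FPKM in the scramble libraries. Of the 6 genes, MTCH2, JADE3 and BLOC1S3 had been chosen for a profile like that of COMMD2. COMMD2 itself is not among the 6, since hairpin 7, at 16.71 FPKM, lay below scramble library 1, at 16.76 FPKM. MTCH2 was at 90.16 and 105.23 FPKM with hairpins 1 and 7, JADE3 at 5.91 and 7.02 FPKM and BLOC1S3 at 2.84 and 3.52 FPKM.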

How the results depend on the processing

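Of the 10 members, 8 kept a positive log2 difference in all 12 alternatives, while COMMD2 ran from -0.16 to 0.05 and COMMD10 from -0.16 to 0.25, with the sign turned by leaving out a knockdown library, in COMMD2 also without scramble library 1 (0.0054) and in COMMD10 also with quantile normalization (-0.0014). The members' median was 0.27 with the settings of the report and 0.32 with TPM scaling. The median of all genes tested also moved, from -0.01 to 0.03. With a library left out the members' median ran from 0.20 to 0.28. The ratio of summed FPKM was 1.32 with TPM scaling and 1.27 to 1.28 with a library left out. The count of genes passing was 328 with the settings of the report, 1 with no filter on low values, where the cause was not tested, 0 with the scramble libraries averaged, and 0 to 4532 with a library left out, the 0 for either scramble library. The members passing numbered 0 to 5 with a library left out, associated genes 0 to 27 and neighbours 0 to 6. These counts are out of 10 members, 56 associated genes and 11 neighbours tested, and stand beside the 0 to 4532 of 12834 genes above. With a library left out, the group of 1 library takes its spread from the other group, so nothing is read from these counts. In the fit without a mean trend 1 associated gene passed. NIPBL lost its call with no filter (adjusted p = 0.118) and with scramble libraries averaged (adjusted p = 0.267), by limma. No paired analysis was possible because the groups share no replicate numbers in the labels. The read depth is unknown, so counting error cannot be set beside these differences.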

Other observations

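A row named lnc-COMMD10-1, a non-coding transcript outside the named genes, was listed at 0 in both knockdown libraries and at 0.13 and 1.02 FPKM in the scramble libraries. It was not tested.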
